A study of Mus musculus with 14 samples.

Results

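The expression of 10 genes of serine synthesis, one-carbon metabolism and amino acid stress was examined in Ocy454 cells, an osteocyte-like mouse line. The genes were chosen by name as recognised targets of the transcription factor ATF4: Phgdh, Psat1 and Psph, Shmt2 and Mthfd2, Asns, Slc7a11, Chac1, Sesn2 and Trib3. All 10 were found among the 39179 genes of the differentiation table and among the 35886 genes to which the transcripts of the sorted cells were summed, and all 10 passed the filters on low values in both. Growth of this line depends on a large T antigen that works only at the lower of its culture temperatures, and raising the temperature starts differentiation. Every culture was grown in MEM alpha with 10% FBS at 33 °C to confluence and then moved to 37 °C, with no other treatment. The differentiation experiment had 2 libraries at each of day 1, day 7, day 10 and day 14 at 37 °C, and day 1 was the baseline. The sorting experiment had 3 libraries of CD61 low and 3 of CD61 high cells, the 10% of live cells with the lowest and the highest surface CD61 after 17 days at 37 °C by the labels and methods (the study's text gives 1 day fewer in another place). Both gates were sorted from 3 independent groups of cells. The comparisons ask how the genes moved with time in differentiation and with surface CD61, which the study used as a marker of osteocyte maturity. All cultures were of 1 line, and the study calls those of the differentiation experiment biologic replicates. The p-values thus measure the spread between cultures of this line.

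ATF4 is the main transcription factor of the integrated stress response. When kinases that sense a lack of amino acids, unfolded protein in the endoplasmic reticulum (ER), haem shortage or double-stranded RNA phosphorylate the initiation factor eIF2, general translation slows while translation of the Atf4 mRNA rises, so that the level of the mRNA is only part of its control. The protein binds with C/EBP partners to composite sites in the promoters of genes that make, import and spare amino acids. Phgdh, Psat1 and Psph encode the enzymes that turn a glycolytic intermediate into serine in that order, Shmt2 and Mthfd2 carry the one-carbon unit of serine into mitochondrial folate, and Asns makes asparagine. Slc7a11 encodes the xCT subunit of the cystine/glutamate exchanger, Chac1 degrades glutathione, Sesn2 restrains the growth kinase mTORC1, and Trib3 is a pseudokinase that restrains ATF4 itself. In bone, ATF4 is known as a factor required for osteoblast maturation and collagen synthesis.

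Promoter windows of the 10 genes were searched for the C/EBP-ATF response element, spelled TGATGNAA, because ATF4 is known to bind such sites. RefSeq windows of 300 bases, from 250 before to 50 after the start of a gene, were available for all 10 and were placed on GRCm39 by an exact match of their sequence. Of the 10 genes, 4 held the element on either strand (Asns, Chac1, Slc7a11 and Trib3), as did 3.97% of all 32851 RefSeq windows of mouse genes. The stretches around these matches are printed below on the strand of the gene with the element in capitals. In Asns and the first copy of Slc7a11 the element lies on the strand of the gene, and the others are its reverse complement.
Asns, chr6:7693210-7693257, minus strand: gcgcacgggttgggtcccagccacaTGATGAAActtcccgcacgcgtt
Chac1, chr2:119181505-119181562, plus strand: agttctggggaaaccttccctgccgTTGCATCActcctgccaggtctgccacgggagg
Slc7a11, chr3:50398077-50398153, minus strand: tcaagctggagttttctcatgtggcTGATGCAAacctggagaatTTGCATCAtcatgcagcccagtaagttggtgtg
Trib3, chr2:152185948-152185977, minus strand: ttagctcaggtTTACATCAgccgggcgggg
Slc7a11 held 2 copies of the element in opposite orientation. The match of Trib3 lay after the start site and the others before it. A search for the antioxidant response element, TGACNNNGC on either strand, found it in Asns, Phgdh, Psph and Sesn2, and in 12.4% of all windows. When windows were instead set at the start of the transcript with the most counts in the sorted cells, TGATGNAA was found only in Chac1 and Slc7a11 of the 10, against 2.35% of 12077 genes, so the count depends on which start site is used. A match describes these letters in this window and does not show binding, and genes without one may hold a site elsewhere.

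The differentiation libraries held 27518605 to 34311238 counts and the sorted libraries 18815602 to 19220064. Mitochondrial genes took 1.01% to 1.37% of counts in the first experiment, highest at day 10, and 3.72% to 4.46% in the second, which used another RNA isolation kit, so levels were not compared between the experiments. Itgb3, which encodes CD61, rose from 10.3 and 10.9 CPM (counts per library scaled to a common total) at day 1 to 56.9 and 57.6 at day 14, and it lay at 5.31 to 6.10 normalized CPM in CD61 low and at 100.1 to 130.1 in CD61 high libraries. Of 9 osteoblast and osteocyte markers tested, 9 were called higher in CD61 high cells (4.84% of all genes) and 7 at day 14 versus day 1 (7.51%). The list includes Itgb3, whose product set the gates and which the study chose among genes that rose by day 14. Its values were thus fixed by the design and are no independent check. The 10 markers of that list summed to 16854 to 20549 normalized CPM in CD61 low and 48217 to 50736 in CD61 high libraries, with Mepe at 0 in CD61 low. Over the days the sum went the other way, from a mean of 35427 CPM at day 1 to 24377 at day 10 and 28094 at day 14, and Col1a1, the collagen I chain, made up most of it in every library (34732 and 34687 CPM at day 1). Endothelial markers summed to at most 0.861 CPM and adipocyte markers to at most 0.755 CPM in any library. The 8 haematopoietic and macrophage markers summed to 17.1 to 22.8 normalized CPM in CD61 low and 12.5 to 13.2 in CD61 high libraries, with Adgre1 at 0 in all. Over the days they summed to 7.37 to 8.03 CPM at day 1, 4.77 to 5.21 at day 7, 10.4 to 11.9 at day 10 and 6.32 to 7.38 at day 14. Of the 2 tested, Cd68, a macrophage lysosomal protein named after its values were seen, was called higher at day 10 against day 1 (Log2FC 1.08; 6.06% of all genes) and against day 7 (Log2FC 1.07; 1.43%). The part of these markers in the results was not tested. In the sort, the TMM scaling factors split by group, 1.10 to 1.13 in CD61 low and 0.895 to 0.909 in CD61 high, and with library size as the only scaling the all-gene median Log2FC was -0.30.

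Per kilobase of the deposited gene length, Shmt2 had the highest level of the 10 at each of the 4 days. At day 1 its level was 164 ± 0.76 CPM per kilobase (SD, n = 2), followed by Asns at 102, Mthfd2 at 86.8, Psat1 at 76.2 and Phgdh at 60.3, and no neighbours in that order overlapped. Slc7a11 had the lowest level, 1.23 ± 0.10 CPM per kilobase, and Shmt2 stood 133 times above it. At day 14 the order had changed: Phgdh was sixth at 33.7 ± 1.26 CPM per kilobase, below Trib3 at 76.3 ± 3.91 and Asns at 74.6 ± 0.54, whose libraries overlapped. These orders over the days, and the lead of Shmt2, rest on the deposited lengths. That of Psat1 is 5266 bases, while Psat1-201, its most counted transcript in the sorted cells, has 2617. For Psph the lengths are 3888 and 1733 bases, and for Shmt2 2293 and 2289. The shorter lengths would place Psat1 and Psph higher. In the sorted cells, on the TPM scale of the deposited files and summed over all transcripts of a gene, Phgdh led in CD61 low cells with 395 ± 35.3 TPM (SD, n = 3), and Psat1 led in CD61 high cells with 274 ± 27.0 TPM. That sum of Psat1 held 98.3 TPM of Psat1-204, a transcript with a retained intron. The protein-coding Psat1-201 and Psat1-205 were at 114 and 29.5 TPM there, beside 158 TPM for Phgdh-201. Slc7a11 was again the lowest, at 4.13 ± 0.94 TPM in CD61 low and 0.41 ± 0.11 TPM in CD61 high cells.

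Over differentiation, a gene was called when the adjusted p of limma (Benjamini-Hochberg over 12725 genes) lay below 0.01 and the Log2FC, on the log2(CPM + 1) scale, lay above 1 or below -1. The first and last enzymes of serine synthesis were lower at day 10 and day 14 than at day 1, short of that fold, and the middle enzyme was lower at day 10 and higher at day 14. Phgdh, the first and committed enzyme, was at 152 and 147 CPM on day 1, 142 and 144 on day 7, then 86.3 and 86.5 on day 10 and finally 81.1 and 85.5 on day 14. Its day 10 and day 14 libraries all lay below those of day 1 and day 7. Its Log2FC at day 14 versus day 1 was -0.83 ± 0.04 (SE; limma adjusted p = 7.7e-16), and most of this lay between day 7 and day 10 (-0.72 ± 0.04, limma adjusted p = 1.2e-13). Psph, the phosphatase of the last step, was at 92.1 and 92.3 CPM on day 1, 98.2 and 98.6 on day 7, then 64.4 and 64.0 on day 10 and finally 56.4 and 55.6 on day 14. Its day 14 mean was 0.607 times the day 1 mean (Log2FC -0.71 ± 0.04, limma adjusted p = 6.2e-14), with no overlap between any 2 days.

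Psat1, the aminotransferase between them, had another course. It was at 399 and 404 CPM on day 1, 498 and 503 on day 7, then 364 and 362 on day 10 and finally 471 and 495 on day 14. Its day 10 libraries were the lowest (Log2FC -0.14 ± 0.04 against day 1, limma adjusted p = 0.00084), and its day 14 libraries lay above those of day 1 (Log2FC 0.27 ± 0.04, limma adjusted p = 2.1e-07, below the fold threshold). The 95% interval of that Log2FC, 0.20 to 0.34, lay on the other side of 0 from the intervals of Phgdh, -0.91 to -0.75, and Psph, -0.79 to -0.63. Shmt2, the mitochondrial hydroxymethyltransferase, followed Phgdh and Psph. It was at 376 and 374 CPM on day 1, 347 and 343 on day 7, then 246 and 234 on day 10 and finally 218 and 220.1 on day 14. Its day 14 mean was 0.584 times that of day 1 (Log2FC -0.77 ± 0.04, limma adjusted p = 2e-16). Mthfd2, which oxidises the one-carbon unit in the mitochondrion, varied least of the 10 over the days, with a ratio of 1.21 between the highest and lowest day means. It was at 261 and 254 CPM at day 1 and at 273 in both day 14 libraries, a Log2FC of 0.09 ± 0.04 (limma adjusted p = 0.034).

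**Figure D1:**
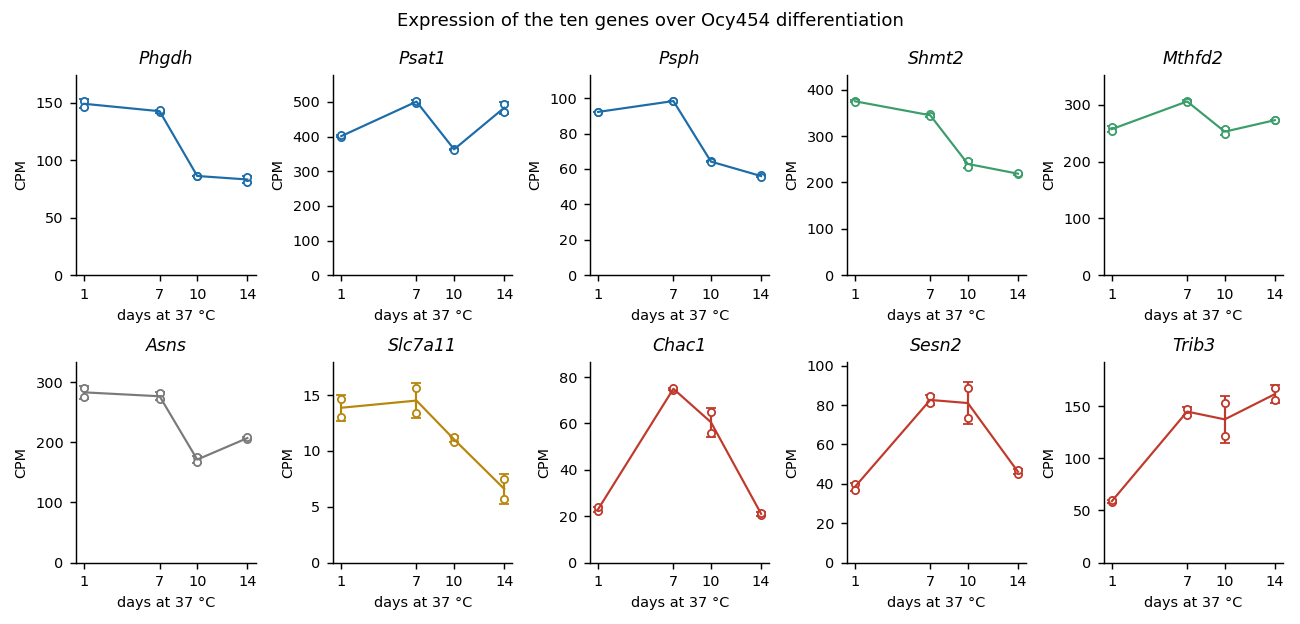
CPM of the 10 genes (vertical axes, from 0, scaled for each gene) against days at 37 °C (horizontal axes). Open circles are the 2 libraries of each day, lines join the day means and bars are ±1 SD. Phgdh, Psph, Shmt2 and Asns lie lower at day 10 and day 14 than before, Chac1 rises to 74.9 CPM at day 7 and is back at 21.0 CPM at day 14, and Trib3 stays high.

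Asns, the asparagine synthetase used as a standard reporter of amino acid limitation, was at 276 and 290.4 CPM at day 1 and at 281 and 272 at day 7, which overlapped. It was at 175 and 168 CPM at day 10 and at 206 and 208 at day 14. Its day 10 libraries were the lowest, at 0.605 times the day 1 mean (Log2FC -0.72 ± 0.04, limma adjusted p = 4.2e-15), and day 14 lay above day 10 (Log2FC 0.27 ± 0.04, limma adjusted p = 9e-07). Slc7a11, whose product imports cystine for glutathione, was low throughout, at 14.7 and 13.0 CPM on day 1, 15.6 and 13.4 on day 7, then 10.8 and 11.2 on day 10 and finally 7.52 and 5.67 on day 14. These values rest on 156 to 521 reads per library. The day 14 libraries lay below all others, with a Log2FC of -0.98 ± 0.11 against day 1 (limma adjusted p = 7.7e-09), just short of the fold threshold. With a pseudocount of 0.1 it was called lower at -1.07, by edgeR on the recovered reads at -1.02, without day 1 replicate 2 at -1.06 and without day 14 replicate 1 at -1.15.

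The 3 stress effectors, Chac1, Sesn2 and Trib3, were the only members called at day 7, all higher. Chac1 was at 22.3 and 23.8 CPM on day 1, 74.6 and 75.3 on day 7, then 64.9 and 56.0 on day 10 and finally 20.5 and 21.5 on day 14. It rose 3.26-fold by day 7 (Log2FC 1.66 ± 0.06, limma adjusted p = 4.5e-18) and fell between day 10 and day 14 to 0.347 times its level (Log2FC -1.48 ± 0.06, limma adjusted p = 2.2e-16), which placed it 14th from the lowest of all 12725 genes in that comparison. Its day 14 libraries lay just below those of day 1 (Log2FC -0.13 ± 0.06, limma adjusted p = 0.076). Sesn2 was at 40.0 and 37.0 CPM on day 1, 84.4 and 80.8 on day 7, then 88.7 and 73.4 on day 10 and finally 45.2 and 47.0 on day 14. It rose 2.14-fold by day 7 (Log2FC 1.08 ± 0.06, limma adjusted p = 4.3e-14), and its Log2FC of day 14 versus day 10 was -0.80 ± 0.06 (limma adjusted p = 4.8e-11). The call of Sesn2 at day 10 versus day 1, at 1.05, was lost without day 1 replicate 2 (0.99) and without day 10 replicate 1 (0.91).

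Trib3 rose as well and stayed high. It was at 57.9 and 60.0 CPM on day 1, 142 and 148 on day 7, then 153 and 121 on day 10 and finally 156 and 168 on day 14. The rise was 2.46-fold at day 7 (Log2FC 1.28 ± 0.06, limma adjusted p = 1.4e-15) and 2.74-fold at day 14 (Log2FC 1.44 ± 0.06, limma adjusted p = 7e-17). The 2 libraries of day 10 differed for these genes: replicate 1 was higher by 23.3% of the mean for Trib3, 18.9% for Sesn2 and 14.7% for Chac1, and it was higher for 8 of the 10 members. Since RNA was taken from whole cultures, fewer cells expressing a gene and less of its RNA per cell cannot be told apart here.

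The comparisons with day 1 share the same 2 day 1 libraries, so their counts are given side by side only. At day 7, 3 of 10 members were called higher, where 4.49% of all genes were, and 0 were called lower by limma, where 4.62% were (1 at an unadjusted p below 0.05, and 0 called by edgeR). At day 10 the same 3, Chac1, Sesn2 and Trib3, were called higher, where 6.06% of all genes were, and 0 lower (4.42% of all genes; 6 at an unadjusted p below 0.05 by limma, and 0 called by edgeR). At day 14 Trib3 was the 1 member called higher, where 7.51% of all genes were, and 0 were called lower by limma (5.9% of all genes; 5 at an unadjusted p below 0.05, and 1 called by edgeR). The median Log2FC of the 10 was 0.17 at day 7, -0.22 at day 10 and -0.29 at day 14, beside -0.05, 0.02 and -0.03 for all genes. With the fold threshold left out, 5 members were higher and 1 lower at day 7 (24.5% and 32.0% of all genes), 3 higher and 5 lower at day 10 (33.1% and 30.3%), and 3 higher and 5 lower at day 14 (32.6% and 36.0%).

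Between day 7 and day 10 no member passed the fold threshold in limma or in edgeR, as only 1.43% of all genes did upward and 0.786% downward. All 10 fitted values were below 0, from -0.72 for Phgdh to -0.03 for Sesn2, with a median of -0.41 beside 0.07 for all genes, of which 41.8% were below 0. The mitochondrial share of counts was 1.30% and 1.37% in the day 10 libraries and 1.01% to 1.10% in the other 6, and its part in the result was not tested. At an adjusted p below 0.01 with no fold threshold, 8 of 10 members were lower, where 18.9% of all genes were, and 0 were higher, where 29.8% were (8 and 0 at an unadjusted p below 0.05). The 2 that did not pass were Trib3 (-0.09 ± 0.06, limma adjusted p = 0.26) and Sesn2 (-0.03 ± 0.06, limma adjusted p = 0.66), whose day 7 and day 10 libraries overlapped. Without day 10 replicate 2 both of these turned to the other side of 0, at 0.08 and 0.10. Between day 10 and day 14 Chac1 was the 1 member called lower, where 0.872% of all genes were, and 0 were called higher by limma, where 2.09% were (4 at an unadjusted p below 0.05, and 0 called by edgeR). Without the fold threshold 4 members were higher and 5 lower there, beside 22.9% and 30.0% of all genes.

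**Figure D2:**
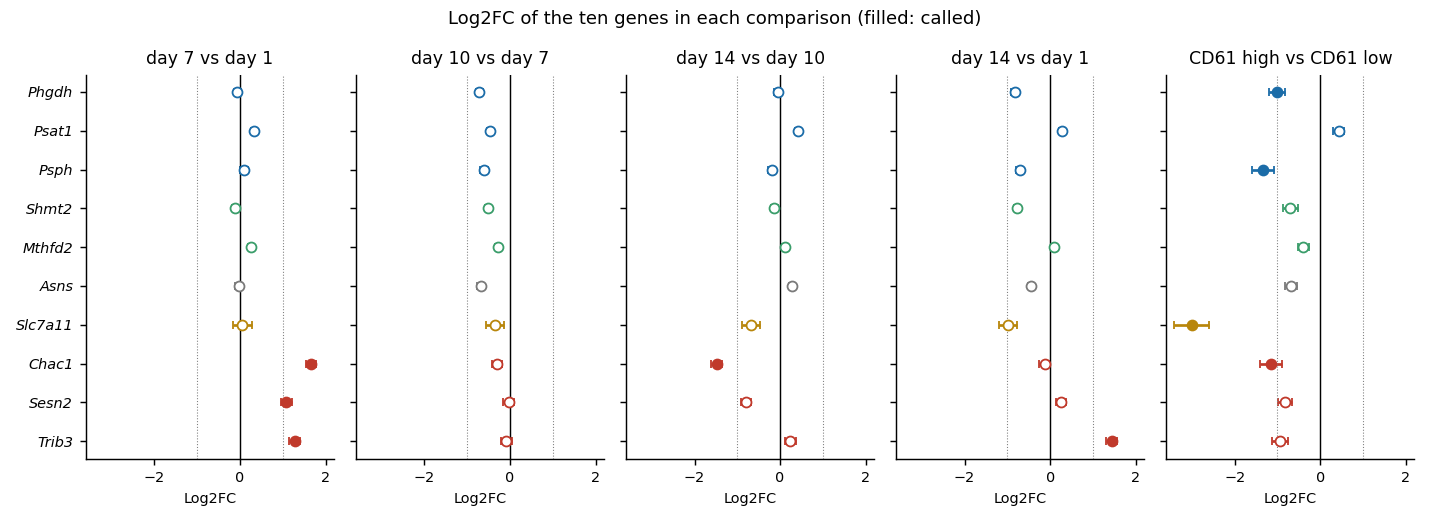
Log2FC of the 10 genes (horizontal axes) in 5 comparisons, with bars for the 95% interval from the SE. Filled circles passed an adjusted p of 0.01 and the dotted fold threshold at 1 or -1. Chac1, Sesn2 and Trib3 are filled to the right at day 7 versus day 1, all 10 lie left of 0 at day 10 versus day 7, and 9 of 10 lie left of 0 in the sort.

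In the sorted cells, where edgeR was run on the summed counts of 12077 genes, the 10 genes were mostly lower in CD61 high than in CD61 low cells. Chac1, Phgdh, Psph and Slc7a11 were called lower, 4 of 10 where 4.37% of all genes were, and 0 were called higher by edgeR or DESeq2, where 4.84% were in edgeR (1 at an unadjusted p below 0.05). At an adjusted p below 0.01 with no fold threshold, 9 members were lower, where 16.0% of all genes were, and Psat1 was higher, as 19.4% of all genes were. The median Log2FC of the 10 was -0.89, beside 0.00 for all genes. The CD61 low and CD61 high libraries did not overlap for any of the 10, with CD61 high below for 9 and above for Psat1. Of all 12077 genes, 28.5% had CD61 high libraries all below and 29.6% all above those of CD61 low.

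Slc7a11 had the lowest Log2FC of the members. It was at 14.2, 15.9 and 20.4 normalized CPM in CD61 low and at 2.58, 1.67 and 2.00 in CD61 high libraries. Every CD61 high library lay below every CD61 low one, with an 8.06-fold difference of means (Log2FC -3.01 ± 0.20, edgeR adjusted p = 1.6e-06). The CD61 high values rest on 29 to 44 counts per library and the CD61 low values on 296 to 417. It ranked 38th from the lowest of 12077 genes. Slc3a2, the heavy chain that carries xCT to the membrane and also serves other transporters, named after its values were seen, was at 499, 475 and 432 in CD61 low and 302, 377 and 332 normalized CPM in CD61 high libraries (Log2FC -0.48 ± 0.09, edgeR adjusted p = 1.7e-03).

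Serine synthesis again split. Phgdh was at 359.7, 379 and 305 normalized CPM in CD61 low and 159, 181 and 178 in CD61 high libraries, with the means 2.01-fold apart (Log2FC -1.01 ± 0.09, edgeR adjusted p = 1.3e-05). It sat at the fold threshold, and its call was lost without CD61 low replicate 1 (-0.99), without CD61 low replicate 2 (-0.95) and without CD61 high replicate 1 (-0.95). Psph was at 50.3, 49.2 and 39.8 in CD61 low and 15.1, 21.0 and 18.9 in CD61 high libraries, a 2.53-fold lower mean (Log2FC -1.34 ± 0.13, edgeR adjusted p = 2.1e-05). Psat1 was the member with the opposite direction. It was at 251, 254 and 249 normalized CPM in CD61 low and 324, 337 and 353 in CD61 high libraries, a 1.34-fold higher mean below the fold threshold (Log2FC 0.43 ± 0.07, edgeR adjusted p = 3.7e-04). Scaled by library size alone its Log2FC was 0.13 (edgeR adjusted p = 0.12), so that it then did not differ beyond the spread, while the other 9 lay further below 0.

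**Figure D3:**
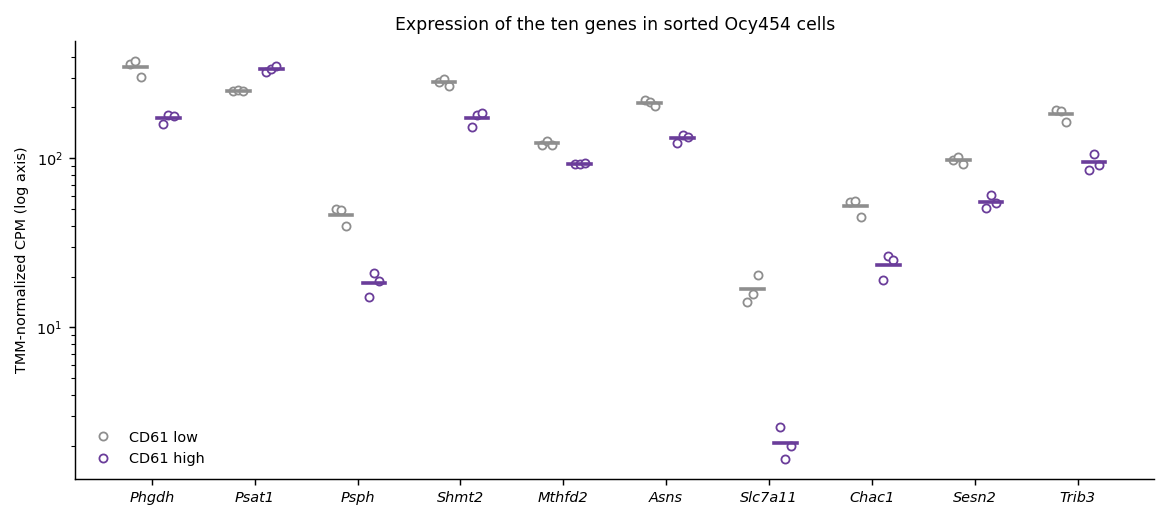
Normalized CPM (log axis) of the 10 genes in the 3 CD61 low libraries (grey circles) and the 3 CD61 high libraries (purple circles), with bars at the group means. The groups are apart for each of the 10, as they were for 28.5% (CD61 high below) and 29.6% (above) of all genes, Slc7a11 shows the widest gap (means of 16.8 and 2.08), and Psat1 is the gene with the CD61 high libraries above.

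The one-carbon enzymes and Asns were lower without reaching the fold threshold. Shmt2 was at 283, 293 and 269 normalized CPM in CD61 low and 154, 181 and 186 in CD61 high libraries (Log2FC -0.70 ± 0.08, edgeR adjusted p = 7.9e-05). Mthfd2 was at 121, 127 and 120.3 against 92.9, 93.0 and 93.7, with the least change of the lower members (Log2FC -0.40 ± 0.06, edgeR adjusted p = 5.7e-04). Asns was at 220.5, 216 and 203 against 124, 137 and 134 (Log2FC -0.69 ± 0.07, edgeR adjusted p = 2.5e-05). In all 3 genes each CD61 high library lay below each CD61 low one.

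The stress effectors were lower in CD61 high cells too. Chac1 was at 55.3, 55.8 and 45.2 normalized CPM in CD61 low and 19.1, 26.3 and 25.1 in CD61 high libraries, 2.22-fold apart (Log2FC -1.15 ± 0.13, edgeR adjusted p = 4.8e-05). Trib3 was at 194, 189.7 and 165 against 85.8, 106 and 91.8 (Log2FC -0.95 ± 0.10, edgeR adjusted p = 2.2e-05). Sesn2 was at 98.3, 101 and 93.2 against 50.8, 60.7 and 54.4 (Log2FC -0.82 ± 0.08, edgeR adjusted p = 2.3e-05). CD61 low replicate 3 was the lowest of its group for all 3, and CD61 high replicate 1 was the lowest of its own. Trib3 was called lower without CD61 low replicate 3 (-1.04), without CD61 high replicate 2 (-1.04) and with library size alone (-1.25), and Sesn2 with library size alone (-1.12).

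Atf4 mRNA itself was not called in any comparison. It was at 436 and 440.2 CPM on day 1, 606 and 622 on day 7, then 760.1 and 716 on day 10 and finally 588 and 628 on day 14. The day 10 libraries were the highest (Log2FC 0.75 ± 0.04 against day 1, limma adjusted p = 2.9e-15), at the day when Asns was lowest. In the sort Atf4 was at 513, 507 and 482 normalized CPM in CD61 low and 321, 355 and 334 in CD61 high libraries (Log2FC -0.57 ± 0.07, edgeR adjusted p = 7.9e-05). Of the 10 genes of the list that holds Atf4 with the eIF2 kinases and phosphatase subunits, 1 was called higher and 1 lower at day 7 (4.49% and 4.62% of all genes). Ppp1r15a, the GADD34 subunit that removes the phosphate from eIF2, rose (Log2FC 1.11 ± 0.05, limma adjusted p = 2.4e-16), and Impact, an inhibitor of the amino acid sensing kinase GCN2, fell by 1.11 on the log2 scale (limma adjusted p = 1.5e-13). At day 14 Gcn1, the activator of GCN2, was the 1 called lower by limma (Log2FC -1.02 ± 0.04, adjusted p = 2.4e-18; 5.9% of all genes), and edgeR called 0 (7 lower at an unadjusted p below 0.05 by either tool). In the sort the 1 called gene (4.37% of all genes lower) was Eif2ak2, the double-stranded RNA sensor PKR, lower in CD61 high cells (Log2FC -1.43 ± 0.14, edgeR adjusted p = 1.7e-05). Eif2ak3, the ER sensor PERK, named after its values were seen, was at 37.3, 32.2 and 39.3 against 54.4, 50.7 and 49.5 normalized CPM (Log2FC 0.51 ± 0.09, edgeR adjusted p = 1.0e-03).

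Among 13 tested stress transcription factors and effectors downstream of ATF4, 5 were called higher at day 7, 3 at day 10 and 3 at day 14 (4.49%, 6.06% and 7.51% of all genes), with medians of 0.60, 0.50 and 0.64. By limma 0 were called lower at these days (2, 3 and 2 at an unadjusted p below 0.05, and 0 called by edgeR). Between day 7 and day 10, 0 were called higher (1.43% of all genes) by limma or edgeR (5 at an unadjusted p below 0.05), and 2 were called lower (0.786%). They were Ddit4, an mTORC1 inhibitor (Log2FC -1.51 ± 0.05, limma adjusted p = 7.8e-18), and Stc2, a secreted glycoprotein (Log2FC -1.20 ± 0.10, limma adjusted p = 2.1e-10). Atf3, a stress-induced repressor, was at 3.90 and 2.76 CPM on day 1, 18.6 and 18.8 on day 7, then 31.7 and 29.2 on day 10 and finally 18.2 and 19.0 on day 14 (Log2FC 2.87 ± 0.10 at day 10, limma adjusted p = 3.2e-19). Ddit3, which encodes the pro-apoptotic partner CHOP that helps induce Chac1 and Trib3, was at 51.6 and 48.9 CPM at day 1 and at 154 and 153 at day 7. It peaked at day 10 with 195 and 165 CPM, again with replicate 1 higher, and was at 119 and 126 at day 14 (Log2FC 1.27 ± 0.05 against day 1, limma adjusted p = 2.2e-17). Vldlr, the very low density lipoprotein receptor, rose at all 3 days, to a Log2FC of 2.28 ± 0.04 at day 14 (limma adjusted p = 1.7e-26). In the sort, 3 of 12 tested genes of this list were called lower (4.37% of all genes) and 0 higher by edgeR or DESeq2 (2 higher at an unadjusted p below 0.05), with a median of -0.33. Ddit3 was at 125, 136 and 104.1 against 45.4, 50.9 and 47.8 normalized CPM (Log2FC -1.34 ± 0.10, edgeR adjusted p = 3.2e-06). Atf3 was at 19.7, 17.5 and 15.1 against 8.27, 6.10 and 7.24 (Log2FC -1.27 ± 0.15, edgeR adjusted p = 6.4e-05). The values of day 7 and of CD61 high cells thus stood on opposite sides of 0 for Chac1, Sesn2, Trib3, Ddit3 and Atf3. At day 14 versus day 1, the day nearest the sort, Chac1 was at -0.13 (limma adjusted p = 0.076), on the side of the sort. Sesn2 (0.25), Trib3 (1.44), Ddit3 (1.27) and Atf3 (2.19) were still above 0 then. The difference between the experiments was not tested.

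Of the relatives of the 10 genes, some lay on the same side of 0 as the member and some on the other. Sesn1, another sestrin, was at 50.5 and 54.3 CPM at day 1 and at 22.9 and 23.8 at day 14, a fall where Sesn2 had a Log2FC of 0.25 (Log2FC of Sesn1 -1.13 ± 0.08, limma adjusted p = 1.4e-12). Sesn3 fell by 1.04 on the log2 scale (limma adjusted p = 4e-11). Trib1 rose from 6.73 and 6.71 CPM at day 1 to 18.6 and 16.8 at day 14 (Log2FC 1.28 ± 0.09, limma adjusted p = 9.1e-13) and Trib2 from 17.9 and 16.9 to 58.5 and 48.4 (Log2FC 1.56 ± 0.07, limma adjusted p = 1.2e-16), both on the same side as Trib3. In the sort, Trib2 was at 12.2, 10.6 and 13.4 in CD61 low and 26.0, 21.5 and 21.9 normalized CPM in CD61 high libraries (Log2FC 0.94 ± 0.12, edgeR adjusted p = 1.4e-04), the opposite side from Trib3. Shmt1, the cytosolic form, was at 53.5 and 46.8 CPM at day 1 and 96.3 and 90.9 at day 10 (Log2FC 0.89 ± 0.05, limma adjusted p = 6.3e-14), while Shmt2 was lower. Chac2, a glutathione-degrading relative of Chac1, and Mthfd2l were at 5.61 and 4.61 and at 15.1 and 14.7 CPM at day 1, and neither was called in any comparison.

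The wider gene lists of amino acid supply had medians below 0 in the sort and, apart from the amino acid transporters (0.27), at day 10 versus day 1. Of 21 cytosolic aminoacyl-tRNA synthetases, which charge tRNAs and of which many are ATF4 targets, 0 were called by limma or edgeR in any comparison of days (at an unadjusted p below 0.05 in limma, day 7 had 9 lower and 7 higher, day 10 had 19 lower with 1 higher, day 14 had 17 lower with 2 higher). At an adjusted p below 0.01 with no fold threshold, 19 were lower and 1 higher at day 10 versus day 1 (30.3% and 33.1% of all genes), with a median of -0.42. In the sort 17 of 20 were lower and 1 higher on that rule (16.0% and 19.4% of all genes), with a median of -0.56, and 0 were called by edgeR or DESeq2 (18 lower at an unadjusted p below 0.05). Of 8 tested amino acid enzymes induced through ATF4, all 8 were lower at day 10 versus day 1 on the same rule (30.3% of all genes; median -0.55). In the sort 5 were lower and 0 higher by edgeR and by DESeq2, beside 16.0% and 19.4% of all genes in edgeR (median -0.40). At an unadjusted p below 0.05 either tool gave 6 lower and 0 higher. Pck2, the mitochondrial phosphoenolpyruvate carboxykinase, was the 1 called lower at day 10 versus day 1 (Log2FC -1.08 ± 0.04, limma adjusted p = 7.6e-18; 4.42% of all genes), and Bcat1, the cytosolic branched-chain aminotransferase, the 1 called lower at day 14 (Log2FC -1.44 ± 0.05, limma adjusted p = 6.3e-20; 5.9% of all genes). In the sort the 1 called lower by edgeR, and by DESeq2, was Gpt2, the mitochondrial alanine aminotransferase (Log2FC -1.01 ± 0.08, edgeR adjusted p = 5.4e-06; 4.37% of all genes). Of 14 folate and glycine cleavage genes, 1 was called lower at day 10 (4.42% of all genes) and 3 at day 14 (5.9%; 2 by edgeR), with medians of -0.43 and -0.34. In the sort 0 of them were called by edgeR or DESeq2, and 9 were lower and 0 higher with no fold threshold, beside the same 16.0% and 19.4% (10 and 1 at an unadjusted p below 0.05 in edgeR), with a median of -0.47. Sfxn1, the mitochondrial serine importer, was at 90.4 and 92.0 CPM at day 1 and at 40.4 and 39.8 at day 10 (Log2FC -1.17 ± 0.05, limma adjusted p = 4.3e-17). In the sort it was at 56.9, 54.0 and 51.7 against 29.3, 29.8 and 29.2 normalized CPM (Log2FC -0.88 ± 0.07, edgeR adjusted p = 7.2e-06).

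Of 10 tested amino acid transporters, 0 were called at day 7 or day 10 versus day 1 by limma (6 and 7 higher and 2 and 3 lower at an unadjusted p below 0.05, and 1 called higher at day 10 by edgeR). At day 14 the 1 called lower, where 5.9% of all genes were, was Slc1a5, a glutamine and neutral amino acid transporter (Log2FC -1.09 ± 0.05, limma adjusted p = 1.1e-16). In the sort 1 was called lower, where 4.37% of all genes were: Slc7a3, an importer of cationic amino acids, named after its values were seen, at 7.56, 7.60 and 6.49 against 2.52, 2.25 and 2.12 normalized CPM (Log2FC -1.65 ± 0.17, edgeR adjusted p = 3.1e-05). The median of the list was 0.27 at day 10 versus day 1 and -0.49 in the sort. Of 12 glutathione and NRF2 target genes, a set that shares Slc7a11 as a target in textbook accounts, Me1, the cytosolic malic enzyme, was the 1 called higher in each comparison with day 1 (4.49%, 6.06% and 7.51% of all genes in day order), with a Log2FC of 1.77 at day 14 (limma adjusted p = 4.5e-23). The medians of this list were -0.27, -0.24 and -0.24 in day order. With the fold threshold left out, 7, 7 and 6 were lower (32.0%, 30.3% and 36.0% of all genes). On that rule 1, 1 and 2 were higher (24.5%, 33.1% and 32.6%). In the sort 0 of these 12 were called by edgeR or DESeq2 (1 higher and 8 lower at an unadjusted p below 0.05 in edgeR), with a median of -0.31. The ER chaperone arm of the unfolded protein response was the list with the lowest median in the sort, -1.16, with 11 of 14 genes called lower (4.37% of all genes) and 0 higher (4.84%) by edgeR or DESeq2 (0 higher at an unadjusted p below 0.05). Hspa5, the chaperone BiP, chosen after its values were seen, was at 1912, 2163 and 1797 normalized CPM in CD61 low and at 438, 438 and 449 in CD61 high libraries (Log2FC -2.15 ± 0.08, edgeR adjusted p = 1e-07). The same 14 genes had medians of 0.22, 0.35 and 0.20 at day 7, day 10 and day 14. Herpud1 and Dnajb9 were the 2 called higher each time (4.49%, 6.06% and 7.51% of all genes), and 0 were called lower by limma or edgeR. With the fold threshold left out, 9, 9 and 8 were higher (24.5%, 33.1% and 32.6% of all genes). On that rule 3, 2 and 4 were lower (32.0%, 30.3% and 36.0%).

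**Figure D4:**
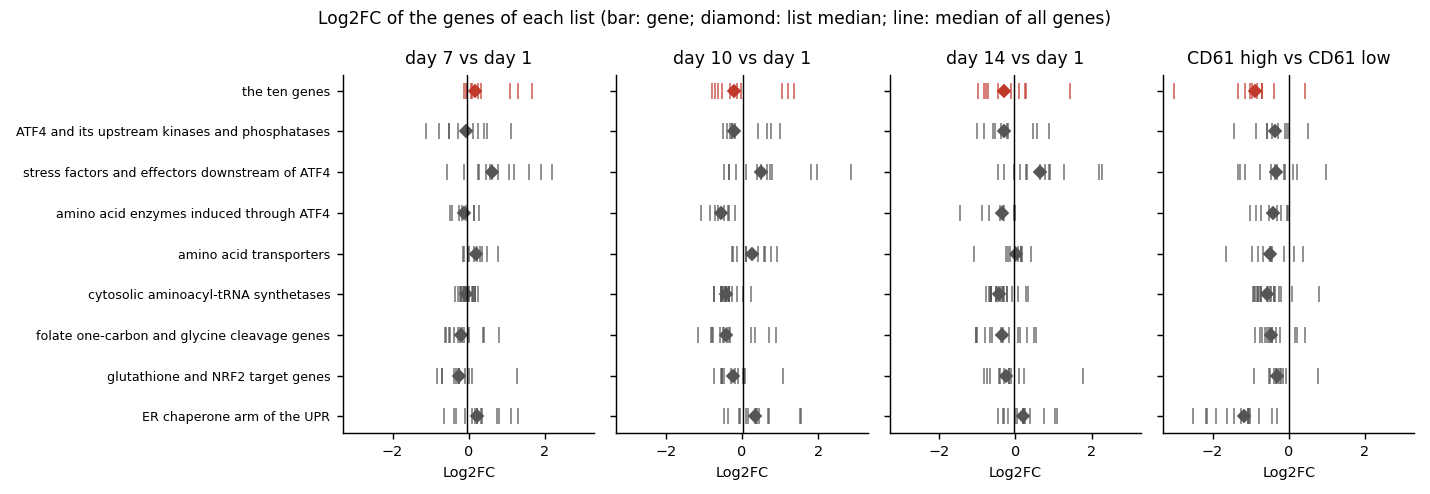
Log2FC (horizontal axes) of the tested genes of 8 lists of ATF4, amino acid, glutathione and ER genes and of the 10 genes in 4 comparisons. Each bar is a gene, the diamond is the median of the list and the vertical line the median of all genes. In the sort the medians of the 9 sets drawn lie left of the line, the ER chaperone arm at -1.16 and the 10 genes at -0.89. Of the lists not drawn, 3 had sort medians above 0 (p53 targets 0.18, DNA synthesis and mitosis 0.14, osteoblast and osteocyte markers 1.86) and 2 below 0 (relatives of the 10 genes -0.19, and haematopoietic and macrophage markers -0.64, of which 2 genes were tested).

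The transcripts of the sorted cells showed which forms were counted. For Asns, Chac1, Mthfd2, Phgdh, Sesn2, Slc7a11 and Trib3 a single protein-coding transcript held at least 93.7% of the counts of the gene in every library. The counts of Shmt2 were split over 2 protein-coding transcripts: Shmt2-201 held 54.8%, 60.6% and 56.3% in CD61 low and 46.8%, 43.9% and 43.3% in CD61 high libraries. Shmt2-206 held 40.8%, 33.7% and 38.2% against 46.6%, 49.6% and 50.4%. The shares of the 2 groups did not overlap, which is given as a description because the shares are Salmon's estimates and were not tested. For Psat1, Psat1-201 held 57.8% to 63.8% in CD61 low and 56.5% to 58.9% in CD61 high libraries, and a transcript with a retained intron, Psat1-204, held 22.8% to 31.8% over the 6 libraries. Shmt2 (chr10:127352266-127358323, minus strand, GRCm39) overlaps the end of Ndufa4l2 on the other strand, which was called higher at day 7 (Log2FC 6.01) and in CD61 high cells (1.77) while Shmt2 was lower. Psph (chr5:129841925-129864513, minus strand) overlaps Cct6a on the other strand, which had a Log2FC of -0.33 at day 14 and -0.37 in the sort. Whether strand was used in counting is not given in the sources used here, so reads from these overlaps cannot be assigned to one gene.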

How the data were processed

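RNA-seq was measured in 8 differentiation and 6 sorted libraries of Ocy454 cells. The submitters' processing notes name STAR, HTSeq, Salmon and GRCm39; the study's methods give a release of the GRCm39 transcriptome for Salmon, while versions of the tools and the use of strand are not given in the sources used here. The authors deposited gene-level CPM for the differentiation libraries. Those CPM were whole multiples of 1 read per library for 99.999% of values (within 0.01 of a whole read), which gave the reads used in an alternative. For the sorted libraries the authors deposited Salmon's estimated counts and TPM per transcript, which were summed to genes with GENCODE M39, a later annotation that held 115556 of the 116747 transcripts, the counts then being rounded. CPM were tested with limma 3.58.1 on log2(CPM + 1), all 8 libraries in 1 fit, and summed counts with the quasi-likelihood test of edgeR 4.0.16 after TMM scaling; normalized CPM use that scaling. P-values were adjusted by Benjamini-Hochberg over all genes that passed the filter on low values, 12725 and 12077. The scripts were tested on simulated data.

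Each gene list was reported by its counts and by up to 2 called increases and 2 called decreases per comparison with a mean of at least 5 CPM, with Atf4 and relatives of the 10 genes in any case; other genes are marked as named after their values were seen. The members and lists were chosen with earlier results of these data known. Alternatives were DESeq2 1.42.0, edgeR on recovered reads, other scaling, pseudocounts and filters, no fold threshold, a replicate block and leaving out each library. Sequences are from RefSeq (windows of GRCm38.p6, placed on GRCm39).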

Additional observations from a re-analysis of the deposited data

How the results depend on the processing

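Of 979 values of the 10 genes and Atf4 under the alternatives, 913 kept their direction and side of the thresholds, 5 lost a call, 51 gained one and 10 changed sign. Most of the gained calls came from leaving out the fold threshold, which can only add calls. The kept values include fits that leave out a library of a day outside the comparison. Such fits, like the replicate block over the days, cannot change the Log2FC, so the tally is not a measure of robustness. The sign changes were of small values. Asns at day 7 versus day 1 was 0.013 by edgeR on recovered reads and 0.012 with TMM scaling, and leaving out 1 library gave -0.070 to 0.0037. Phgdh at day 14 versus day 10 was 0.0064 by edgeR and 0.0070 with TMM scaling. Leaving out 1 library gave -0.053 to 0.0013 for Mthfd2 at day 10 versus day 1, -0.25 to 0.082 for Trib3 and -0.17 to 0.10 for Sesn2 at day 10 versus day 7, and -0.046 to 0.16 for Slc7a11 at day 7 versus day 1 (-0.019 without day 1 replicate 2). The cause was not tested.

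Leaving out the fold threshold gave 5 members higher and 1 lower for day 7 against day 1 (24.5% and 32.0% of all genes). It gave 3 and 5 for day 10 (33.1% and 30.3%), and 3 and 5 for day 14 (32.6% and 36.0%). For day 10 against day 7 it gave 8 lower (18.9%). For day 14 against day 10 it gave 4 higher with 5 lower (22.9% and 30.0%). In the sort it gave 1 higher with 9 lower (19.4% and 16.0%). At day 14 versus day 1, 1 member was called lower with a pseudocount of 0.1 and by edgeR. Leaving out 1 library gave 3 to 5 members called lower in the sort, 2 to 3 called higher at day 10 and 0 to 1 called lower at day 14 against day 1. In the sort, library size alone gave 314 genes called higher and 981 lower, against 585 and 528 with TMM. With TMM scaling of the days, 145 genes were higher and 127 lower at day 10 versus day 7 (182 and 100 without it).

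Both gates were sorted from 3 groups of cells, but no source used here says that a replicate number marks the group. Correlations of the deviations of libraries with the same number were -0.03 to 0.06 over the days and -0.32 to 0.22 in the sort, so the numbers were not taken to pair the libraries. Libraries of different numbers had -0.41 to 0.47 in the sort, highest for CD61 low replicate 3 with CD61 high replicate 1. A pairing across numbers was not tested, and the main test of the sort used no pairing. Every day holds each replicate number, so a replicate block cannot change the Log2FC over the days. The counts of calls there stayed as they were (956 higher and 751 lower at day 14 versus day 1), which does not test a pairing. In the sort the block gave 574 and 509, with the members' calls kept.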

Other observations

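Over the 8 differentiation libraries, and among 1689 genes averaging 5 CPM or more whose day means spanned 1 log2 unit or more, the genes whose log2(CPM + 1) was most like that of Asns were Ncs1 (Pearson r 0.982), Fbln1 (0.970), Arhgdib (0.966), Serpinf1 (0.965) and Cdsn (0.955). Genes with smaller ranges were not ranked. Of the other members, Phgdh had an r of 0.923, Shmt2 0.887 and Psph 0.851. Slc7a11 had 0.556, Mthfd2 0.495 and Psat1 0.463, while Chac1 had -0.105, Sesn2 -0.318 and Trib3 -0.526, and Atf4 had -0.772. The points share libraries and days, and the values are a description. In the sort, where Asns had a Log2FC of -0.69, these 5 genes had -0.56, 0.09, 1.08, 0.04 and -1.79 in that order.

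Sesn2 is also a target of the tumour suppressor p53. Of 11 tested p53 target genes, day 7 had 2 called higher, day 10 had 3 higher with 1 lower, and day 14 had 1 higher with 2 lower, with medians of -0.04, 0.11 and -0.42. Of all genes, 4.49%, 6.06% and 7.51% were called higher and 4.62%, 4.42% and 5.9% lower at these days. Cdkn1a, which encodes the cell cycle inhibitor p21, had a Log2FC of 3.78 at day 7, 3.54 at day 10 and 3.99 at day 14 against day 1, called each time, and 0.77 in the sort. Zmat3 was called lower at day 14 (Log2FC -1.71). In the sort it was the 1 of 10 tested called lower by edgeR (Log2FC -1.25), and DESeq2 called 0 (3 at an unadjusted p below 0.05 by either tool), while 4.37% of all genes were called lower. The sort median of the list was 0.18, with 3 genes higher and 2 lower when the fold threshold was left out, beside 19.4% and 16.0% of all genes. Of 10 DNA synthesis and mitosis markers, 0 were called in any comparison by limma or edgeR, or by DESeq2 in the sort (at day 14 versus day 1, 3 were higher and 5 lower at an unadjusted p below 0.05 in limma, and in the sort 5 and 2 in edgeR). Their summed level had means of 2950.5, 3295, 3103 and 2965 CPM for days 1, 7, 10 and 14. In the sort it lay at 2562 to 2777 normalized CPM in CD61 low and, without overlap, at 2795 to 3065 in CD61 high libraries.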
